A study of Mus musculus with 6 samples.

Results

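Genes of NEDD8 conjugation were described in regulatory T (Treg) cells, CD4+ T cells that express Foxp3 and hold immune responses in check. The 10 genes were taken by symbol: Nedd8, the E1 subunits Nae1 and Uba3, the E2 Ube2f, the RING proteins Rbx1 and Rnf7, the co-factors Dcun1d1, Dcun1d3 and Dcun1d5, and the protease Senp8. They are 10 of 19505 genes with a named probe set, and each had exactly 1 among the 22206 probe sets of the array, so no choice between probe sets was needed. CD4+YFP+ Treg cells had been sorted from peripheral lymph nodes and spleens of mice aged 8 to 12 weeks, and each of the 6 samples pooled 2 to 3 mice. Control Treg cells (n = 3) came from mice that were Foxp3 Cre/wt, and deficient Treg cells (n = 3) from Foxp3 Cre/wt mice with floxed alleles of both E2 genes, Ube2m fl/fl and Ube2f fl/fl. Both groups therefore carried the Foxp3 YFP-Cre allele, in which Foxp3 drives Cre and YFP. Per the study the mice were females, in which X inactivation leaves Treg cells without active Cre beside the YFP+ ones and these normal cells keep the animals free of inflammation. Spread between pools is therefore what the p-values rest on. The study asked how loss of both neddylation E2s alters the Treg cell transcriptome, and the comparison made here is how the remaining conjugation genes stood in those cells.

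NEDD8 is a small ubiquitin-like protein that is joined to lysines of its targets by a chain of enzymes. The heterodimeric E1 of Nae1 and Uba3 activates it, an E2 (Ube2m or Ube2f) carries it, and a RING protein (Rbx1 or Rnf7, also called Sag) places it on a cullin with the help of DCUN1D proteins. Ube2m is known to work with Rbx1 on most cullins and Ube2f with Rnf7 on Cul5. Neddylated cullins form active cullin-RING ubiquitin ligases, the COP9 signalosome takes NEDD8 off cullins again, and Senp8 trims the NEDD8 precursor and removes NEDD8 from other proteins.

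Ube2f is the targeted gene, and Nedd8 and Senp8 had the largest differences, of opposite sign, among the other genes. Sequences before an annotated transcript start of each are shown to place these genes on the genome. They are the 250 bases before an annotated transcript start in RefSeq on GRCm38.p6, for Ube2f chr1:91250054-91250303 on the plus strand, for Nedd8 chr14:55671881-55672130 on the minus strand and for Senp8 chr9:59750650-59750899 on the minus strand. Capitals mark an ETS core (CCGGAAG) or CCAAT in Ube2f, an ETS core in Nedd8, and a GC box (GGGCGG, here on the other strand) and an NRF1 motif (GCGCNTGCGC) in Senp8.
Ube2f: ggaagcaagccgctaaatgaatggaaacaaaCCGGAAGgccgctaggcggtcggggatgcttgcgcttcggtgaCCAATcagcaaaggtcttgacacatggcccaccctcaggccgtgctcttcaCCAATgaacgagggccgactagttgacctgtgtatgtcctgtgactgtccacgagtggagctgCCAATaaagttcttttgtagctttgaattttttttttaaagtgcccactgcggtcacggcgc
Nedd8: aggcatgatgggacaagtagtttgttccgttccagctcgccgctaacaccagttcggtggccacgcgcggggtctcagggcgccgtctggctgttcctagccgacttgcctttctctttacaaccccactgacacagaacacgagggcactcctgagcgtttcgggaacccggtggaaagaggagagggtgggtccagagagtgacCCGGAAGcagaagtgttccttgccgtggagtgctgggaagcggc
Senp8: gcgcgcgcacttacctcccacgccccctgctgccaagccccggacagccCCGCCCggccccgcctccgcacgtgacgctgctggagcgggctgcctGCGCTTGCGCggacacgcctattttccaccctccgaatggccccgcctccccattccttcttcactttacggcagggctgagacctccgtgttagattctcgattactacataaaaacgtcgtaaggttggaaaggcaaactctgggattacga
Motifs were searched on both strands, and CCGGAAG stood in a window of 3 of the 10 genes (Ube2f, Nedd8 and Dcun1d3) against 7.83% of 27025 genes. GGGCGG stood in 7 of the 10 against 35.4%, CCAAT in 4 against 37.5%, GCGCNTGCGC in 1 (Senp8) against 4.23%, and TATAAA and ATGGCGG in 0 against 14.3% and 2.58%. Ube2f had another window, chr1:91250316-91250565, and its GGGCGG lay there and not in the printed one. The printed window of Ube2f lies inside the annotated gene, which starts at chr1:91249690. The 15 windows of the 10 genes had a median GC content of 62.4% (42.0% to 78.4%) against 52.4% over all windows. These matches describe letters, and the arrays measured no promoter.

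Among the 10 genes, Ube2f alone passed the test. With limma and Benjamini-Hochberg adjustment over all 22206 probe sets at a threshold of 0.05, 1 of the 10 was lower in deficient Treg cells, where 2.27% of all probe sets were, and 0 were higher, where 0.581% were. An unadjusted p under 0.05 was reached by Ube2f and Senp8, 2 of the 10, and by 2855 of all probe sets. With the unadjusted p and a fold over 1.5, as the study set its threshold, these 2 genes counted as lower (5.82% of all probe sets) and 0 as higher (3.24%). The control and deficient values did not overlap for 1 of the 10, again Ube2f, against 18.2% of all probe sets. The other 9 genes had a median log2 difference, always given as deficient minus control, of 0.06 and a median absolute difference of 0.22, beside 0.02 and 0.19 over all probe sets. Of these 9 genes 8 lay above a reference for silent genes, described below with Dcun1d3. Over the 10123 probe sets above that reference the 2 medians were -0.03 and 0.25. Of those 10123, 2640 had no overlap, 426 were called lower and 118 higher.

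The Ube2f transcript was lower in every deficient sample. Its log2 signal was 11.91, 11.82 and 11.90 on the control arrays and 9.70, 9.72 and 9.82 on the deficient arrays, and 2.00 log2 units lay between the lowest control and the highest deficient value. The difference of -2.13 (SE 0.164, limma adjusted p = 0.000263) left 22.9% of the control signal, with a 95% confidence interval from 17.7% to 29.6%. By its p, Ube2f ranked 40 of 22206, while 147 of the 503 lower probe sets had a larger difference. An exact permutation test over the arrays, two-sided, reached p = 0.1, below which 3 against 3 cannot go. In bulk samples fewer cells with a transcript and less transcript per cell cannot be told apart, so the remaining signal has no single reading. The sources used here do not say whether the probe set covers the floxed exons, without which the lower signal is no check of the genotype. Ube2m was not analysed here.

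**Figure D1:**
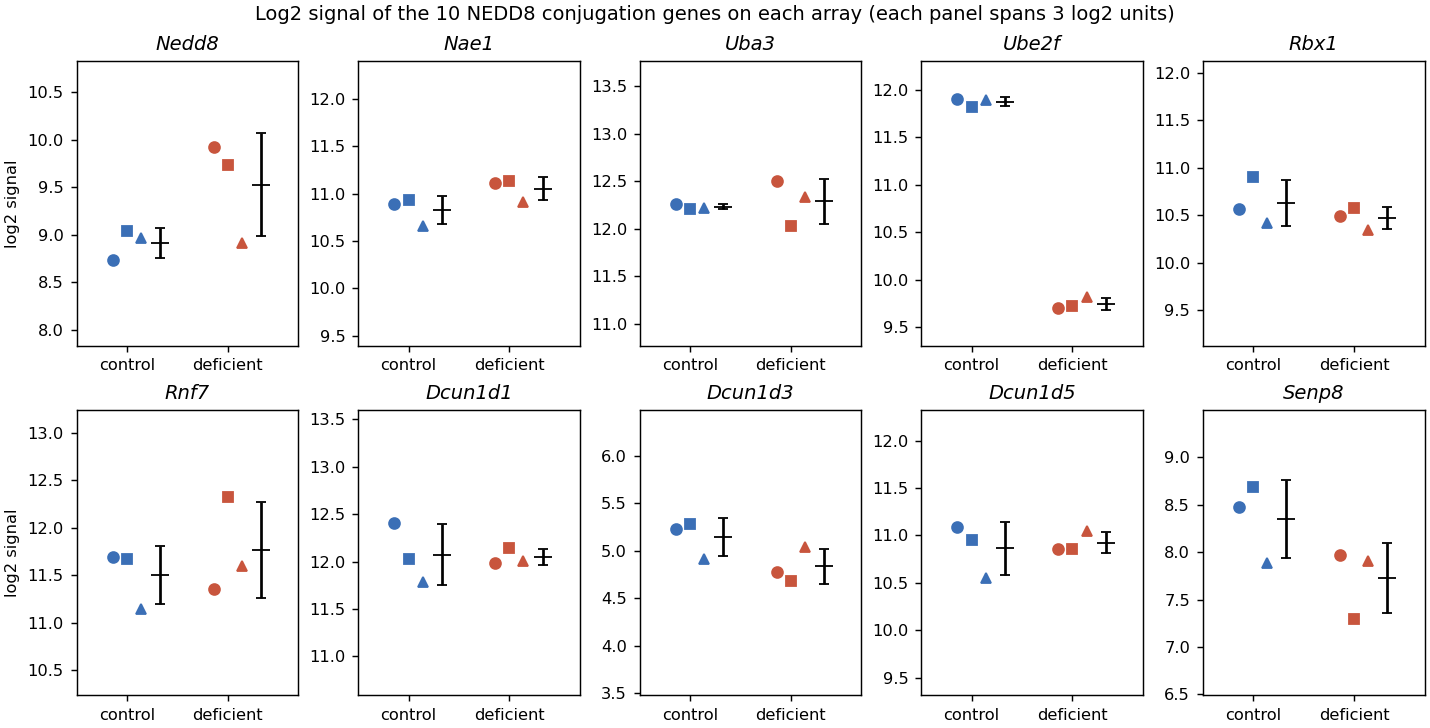
Log2 signal of each of the 10 genes (y axis, 3 log2 units in every panel) on the control (blue) and deficient (red) arrays, with circles, squares and triangles for replicates 1, 2 and 3 and the bar for mean ± SD (n = 3). The Ube2f groups lie 2.00 log2 units apart, and in each of the other 9 panels the groups overlap.

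Nedd8, which encodes the modifier itself, was the member with the highest difference, but its deficient samples did not move together. Its log2 signal was 8.73, 9.04 and 8.97 on the control arrays and 9.93, 9.74 and 8.91 on the deficient arrays. Deficient samples 1 and 2 lay above every control, and deficient sample 3 lay among them. The difference of 0.61 (SE 0.273, 95% confidence interval -0.01 to 1.23) did not pass the test (limma adjusted p = 0.395), and the exact permutation p was 0.3. The SD was 0.163 in control and 0.542 in deficient Treg cells. Without deficient sample 3 the difference was 0.92 and without deficient sample 1 it was 0.41, and neither passed.

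Senp8, the protease of NEDD8, had the lowest difference of the 9 genes other than Ube2f. Its log2 signal was 8.47, 8.69 and 7.89 on the control arrays and 7.97, 7.30 and 7.91 on the deficient arrays. Control sample 3 lay below deficient samples 1 and 3, so the groups overlapped. The difference of -0.62 (SE 0.270, 95% confidence interval -1.24 to -0.01) left 64.9% of the control signal. Its unadjusted limma p was 0.0468 and its adjusted p 0.376, and with the methods' t-test the unadjusted value was 0.124. Leaving out 1 array at a time moved the difference from -0.85 to -0.41. The other SENP proteases act on SUMO, and none of the 6 measured passed the test, with differences from -0.34 to 0.35.

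The E1 subunits did not pass the test. Nae1, the regulatory subunit, measured 10.89, 10.93 and 10.66 on the control and 11.11, 11.13 and 10.91 on the deficient arrays. The lowest deficient value lay just below the highest control value, and the difference of 0.22 had a 95% confidence interval from -0.18 to 0.63 (limma adjusted p = 0.708) and was 0.14 without control sample 3. Uba3, the catalytic subunit, measured 12.26, 12.21 and 12.22 on the control and 12.50, 12.03 and 12.33 on the deficient arrays. Its controls lay within 0.05 log2 units of each other, whereas the deficient samples lay on both sides of them. The difference was 0.06 with an interval from -0.37 to 0.48.

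The RING partners did not pass the test either. Rbx1 measured 10.57, 10.90 and 10.42 on the control and 10.49, 10.58 and 10.35 on the deficient arrays, a difference of -0.16 with an interval from -0.59 to 0.28. Control sample 2 was the highest, the other control samples lay among the deficient ones, and without control sample 2 the difference was -0.02. Rnf7, the partner of Ube2f, measured 11.69, 11.67 and 11.15 on the control and 11.36, 12.33 and 11.60 on the deficient arrays. Deficient sample 2 stood above all others, the difference was 0.26 (interval -0.38 to 0.90), and without that sample it was -0.02. A difference of Rnf7 as large as that of Ube2f lay outside its interval.

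The DCUN1D co-factors, which bind the E2 and the cullin and speed the transfer, gave small differences. Dcun1d1 measured 12.41, 12.03 and 11.78 on the control and 11.99, 12.14 and 12.01 on the deficient arrays, a difference of -0.03 (interval -0.49 to 0.44) whose sign turned in 5 of 16 alternative settings, quantile normalization among them. Dcun1d5 measured 11.09, 10.95 and 10.55 on the control and 10.86, 10.86 and 11.05 on the deficient arrays, a difference of 0.06 (interval -0.39 to 0.51). In both genes the deficient values lay within the range of the controls. Dcun1d3, a form that sits at membranes, measured 5.23, 5.28 and 4.91 on the control and 4.78, 4.68 and 5.04 on the deficient arrays, a difference of -0.31 (interval -0.75 to 0.13). Its mean lay under 5.39, the 95th percentile of 1091 olfactory receptor probe sets, a reference for silent genes, and it was the 1 gene of the 10 to do so, so its probe set cannot be told from that of a silent gene by level.

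Over the 9 genes other than Ube2f, 5 differences were above 0 and 4 below, and the intervals of 8 spanned 0. The intervals of 7 lay within 0.9 log2 units of 0 on both sides, and the widest bound was 1.24 for Senp8. Control array 3 was the lowest control for 7 of the 9 genes, and their mean log2 signal was 9.84 on it against 10.15 and 10.19 on the other controls, while its median over all probe sets, 5.04, was that of control array 2.

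**Figure D2:**
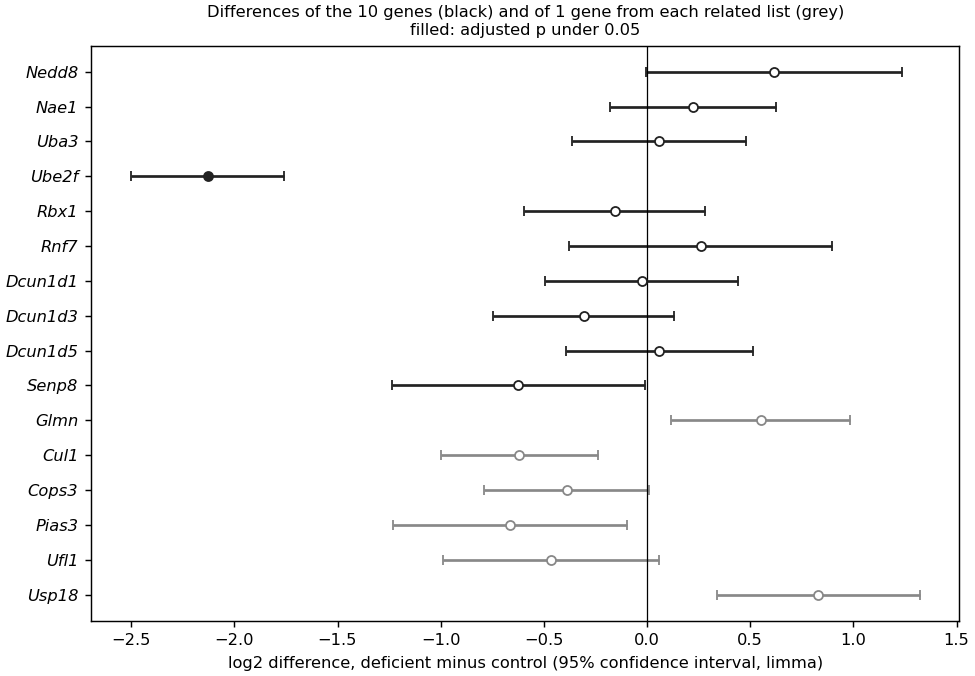
Log2 difference, deficient minus control (x axis), with the 95% confidence interval from limma for the 10 genes (black) and for the gene with the lowest p of each related list (grey), filled where the adjusted p was under 0.05. Ube2f at -2.13 is the 1 filled point, and the interval of Nedd8 (-0.01 to 1.23) spans 0 while that of Senp8 (-1.24 to -0.01) ends just below it.

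Partners were compared by their log2 ratio within an array, of which only the change between groups can be read because probe sets differ in brightness. 4 pairs were compared, with p-values adjusted over them. For Ube2f to Rnf7, the E2 and its RING protein, the ratio was 0.22, 0.15 and 0.75 on the control and -1.66, -2.61 and -1.78 on the deficient arrays. The groups did not overlap and the change was -2.39, with an exact permutation p of 0.1, the smallest possible, and an adjusted p of 0.267. Most of this change is the difference of -2.13 of Ube2f itself, the targeted gene. The separation is therefore no separate result about the 2 partners. For Nedd8 to Senp8, the modifier and its protease, the ratio was 0.26, 0.35 and 1.08 on the control and 1.96, 2.44 and 1.0 on the deficient arrays. Deficient samples 1 and 2 lay above all controls and deficient sample 3 below 1 of them, and the change of 1.24 had an exact permutation p of 0.2 (adjusted 0.267). The ratio of the E1 subunits Nae1 to Uba3 changed by 0.17 (exact permutation p = 0.6, adjusted 0.6) and that of Rbx1 to Rnf7 by -0.42 (exact permutation p = 0.2, adjusted 0.267), with overlap in both. Without deficient sample 2 the change of Rbx1 to Rnf7 was -0.19, and without deficient sample 1 it was -0.63.

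**Figure D3:**
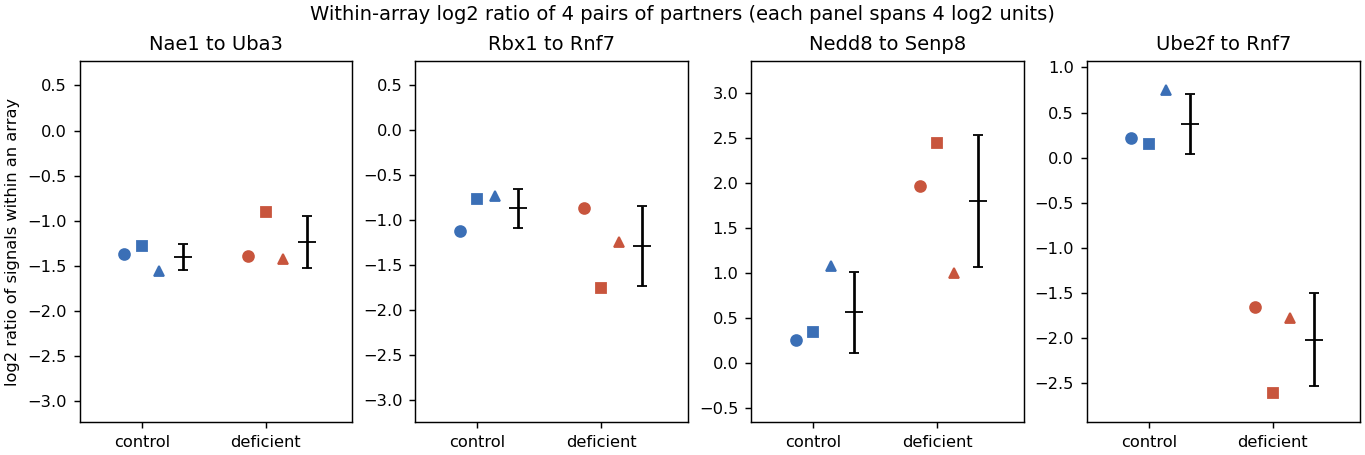
Log2 ratio of the signals of 4 pairs of partners within each array (y axis, 4 log2 units in every panel) on the control (blue) and deficient (red) arrays, with circles, squares and triangles for replicates 1, 2 and 3 and the bar for mean ± SD (n = 3). The groups are apart for Ube2f to Rnf7, whose ratio changed by -2.39, mostly through the targeted Ube2f itself, and overlap in the other 3 panels.

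Further genes of the pathway were counted from lists, and none passed the test. Of 12 further NEDD8 genes 10 were measured, with a median difference of 0.05. The lowest p among them was that of Glmn, which binds the RING protein and holds back the ligase, with 8.86, 8.50 and 8.60 on the control and 9.28, 8.99 and 9.34 on the deficient arrays (difference 0.55, limma adjusted p = 0.240). Its groups did not overlap. Nor did those of Dcun1d4, a further co-factor (difference -0.46, limma adjusted p = 0.356), which unlike Glmn was chosen after its values were seen as the other gene without overlap on this list. These 2 of 10 stand beside 18.2% of all probe sets without overlap.

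Cullins, the main carriers of NEDD8, were all measured, and 0 of 8 passed (median 0.06). Cul1, the scaffold of the SCF ligases, had the lowest p, with 10.60, 10.76 and 10.76 on the control and 10.04, 10.05 and 10.17 on the deficient arrays. All deficient values lay below all control values, by a difference of -0.62 (95% confidence interval -1.0 to -0.24) with a limma adjusted p of 0.114. Cul4a, a scaffold of the CRL4 ligases, was picked on its values as the other of 2 cullins without overlap (18.2% of all probe sets had none). It lay the opposite way, with a difference of 0.41 (limma adjusted p = 0.395). Cul5, the cullin that Ube2f is known to serve, was chosen after its values were seen and had a difference of 0.24 (interval -0.24 to 0.72). Of the 10 subunits of the COP9 signalosome 0 passed (median -0.08), and Cops3 came nearest at -0.39 (limma adjusted p = 0.401).

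Parallel conjugation systems were counted in the same way. Of 16 genes of SUMO conjugation 13 were measured and 0 passed (median -0.03), and the groups of 5 did not overlap, in both directions and beside 18.2% of all probe sets. The lowest p there was that of Pias3, a SUMO ligase, at -0.66 (limma adjusted p = 0.284). Of 8 genes of UFM1 conjugation 7 were measured and 0 passed, with a median of -0.23 and Ufl1, the UFM1 ligase, at -0.47 (limma adjusted p = 0.457). Of 10 genes of ubiquitin activation and ISG15 conjugation 5 were measured and 0 passed (median -0.16). Usp18, the ISG15 protease, had the lowest p of these, with 9.55, 10 and 10.21 on the control and 10.86, 10.82 and 10.57 on the deficient arrays, a difference of 0.83 without overlap (limma adjusted p = 0.102). Isg15 itself was chosen after its values were seen and lay at 4.70 to 4.99 on all arrays, under the reference for silent genes.

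**Figure D4:**
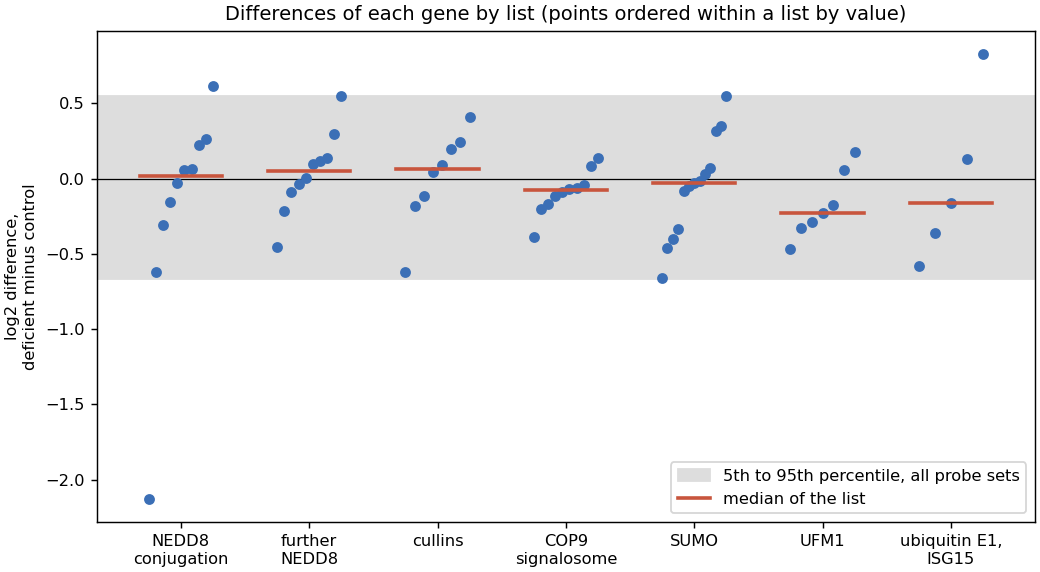
Log2 difference, deficient minus control (y axis), of each measured gene of 7 lists (x axis, points ordered by value within a list), with the median of each list as a red line and the range from the 5th to the 95th percentile of all probe sets (-0.67 to 0.55) in grey. Ube2f at -2.13 is the 1 point far below the grey range, and Nedd8 (0.61) and Usp18 (0.83) are the highest points.

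Genes on either side of Ube2f were read because the targeted locus was altered. By the order of gene starts in RefSeq on GRCm38.p6, the 3 nearest measured genes before it were Lrrfip1, Rbm44 and Ramp1 and the 3 after it Scly, Espnl and Klhl30. Ramp1, which encodes a receptor activity-modifying protein that forms the CGRP receptor and lies with its start 69.9 kb before that of Ube2f, measured 9.14, 9.72 and 9.24 on the control and 10.69, 10.28 and 10.47 on the deficient arrays. All deficient values lay above all control values, by a difference of 1.11 (SE 0.217, 95% confidence interval 0.62 to 1.60, limma adjusted p = 0.0309). The call held in 9 of 16 alternative settings and was lost without control sample 1 or 3, without deficient sample 1 or 3, without control sample 1 and deficient sample 2 together, under the replicate block (adjusted p = 0.0899) and with the methods' t-test (adjusted p = 0.199). Ramp1 was the 1 neighbour called higher and the 1 without overlap, beside 0.581% and 18.2% of all probe sets. The other 5 neighbours did not pass, with differences from -0.28 (Scly, a selenocysteine lyase) to 0.58 (Rbm44). Without control sample 2 the difference of Scly was -0.50, and without deficient sample 1 that of Rbm44 was 0.23. The means of Rbm44, Espnl and Klhl30 lay under the reference for silent genes.

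**Figure D5:**
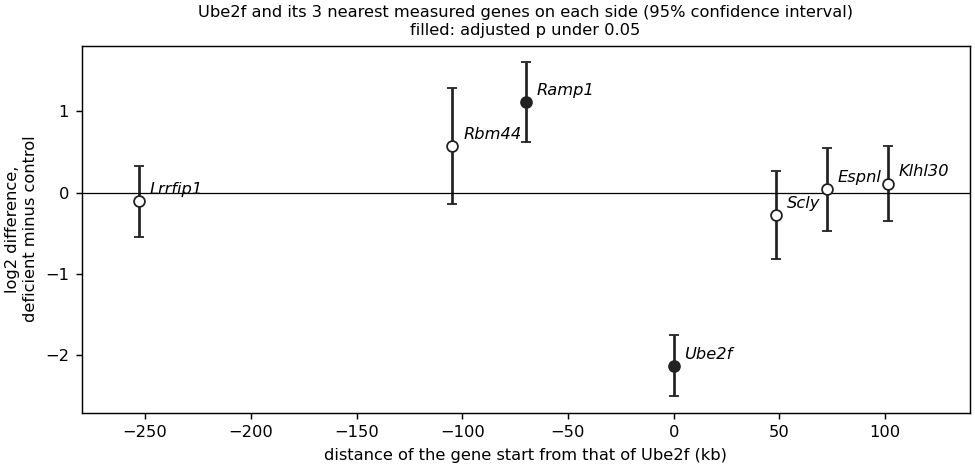
Log2 difference, deficient minus control, with the 95% confidence interval (y axis) of Ube2f and its 3 nearest measured genes on each side against the distance of gene starts from that of Ube2f in kb (x axis), filled where the adjusted p was under 0.05. Ube2f lies at -2.13, Ramp1 at 1.11, and the intervals of the other 5 genes span 0.

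Genes with a profile like that of Ube2f were found by the root mean square distance between profiles over the 6 arrays, each centred on its own mean. The 5 nearest were Lamc1, a laminin chain (distance 0.073 log2 units, difference -2.19), Lpxn, the adaptor leupaxin (0.174, -2.32), S100a10, a partner of annexin A2 (0.177, -2.14), the potassium channel Kcnk6 (0.180, -2.09) and Arhgap5 (0.187, -1.93). They share the group difference of Ube2f by construction. The deficient values of Lamc1 (4.14, 4.31 and 4.24) and of Kcnk6 (4.23 to 4.60) lay under the reference for silent genes while their control values lay above it, so the sizes of these differences depend on that floor.

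The labelled cell type was read from marker lists, whose part in these results was not tested. All 6 measured T cell markers were above the reference for silent genes, with mean log2 signals of 15.44 to 15.66 on the control and 15.17 to 15.39 on the deficient arrays. The same held for all 5 Treg markers, and the list lay at 14.67 to 14.89 on the control and 13.98 to 14.25 on the deficient arrays. Of these, 3 of 5 passed as lower, beside 2.27% of all probe sets: Ctla4 by -1.49 (limma adjusted p = 0.00432), Izumo1r by -1.22 (0.0165) and Ikzf2 by -0.95 (0.0446). Il2ra lay the other way without overlap, by 0.60, and did not pass (limma adjusted p = 0.135). The titles name muscle, and 0 of 5 skeletal muscle markers were above the reference. Of the B cell markers 1 of 3 was above it, of the CD8 T cell markers 1 of 2, of the NK cell markers 1 of 3, and of the myeloid and dendritic cell markers 0 of 5 and 0 of 3. The plasma cell list lay at 5.30 to 6.37 on the control and 6.83 to 8.43 on the deficient arrays. There Jchain, the joining chain of antibodies, was at 7.69, 5.31 and 5.26 on the control and 10.10, 11.94 and 8.01 on the deficient arrays (limma adjusted p = 0.0773), while Sdc1 differed by 0.01. Array medians ran from 4.89 to 5.11, and Pearson's r between arrays across probe sets was 0.982 or more within groups and at least 0.975 between them.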

How the data were processed

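RNA of 6 sorted Treg cell samples was amplified and labelled with a pico kit and hybridised to 1-colour Clariom S arrays. The authors deposited 1 log2 signal per probe set and array, made with Affymetrix Expression Console 1.4 per the submitters' processing notes. The sources used here do not give the log base, the summarisation or the background correction. A log2 scale was inferred from the range of the values, and another base would alter folds but no sign. Symbols came from the platform annotation (19572 of 22206 probe sets had 1, 2634 none). Groups were taken from the genotype labels.

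Deficient and control arrays were compared with limma 3.58.1 in R 4.3.3 (lmFit and eBayes, group only, no filter on low values), Benjamini-Hochberg adjustment over all probe sets and a threshold of 0.05, with 4.78 prior degrees of freedom. Single values and pair ratios were also tested by exact two-sided permutation. The fit was tested on simulated data of 3 against 3 arrays with 200 changed probe sets. It recovered 0 of 200 at a log2 size of 0.6, 0 of 200 at 1 and 181 of 200 at 2. A gene that did not pass is therefore not shown to be unchanged. The real arrays gave more calls than the simulation changed, 503 lower and 129 higher. Among these were Ramp1 at 1.11 and Ikzf2 at -0.95, so the simulated rates need not hold for the real arrays. The genes and lists were chosen with earlier results of these data known. Named are the 10 genes, the neighbours of Ube2f, the 5 genes nearest to it in profile, and of each other list the gene with the lowest p where none passed. Marker genes are named beside these, and the text says where any other gene was picked on its values. The alternatives were median centring, quantile normalization, a filter that removed the dimmest 40% of probe sets, robust variances with an intensity trend, array weights, the methods' t-test (2-sided, unpaired), a replicate block, the olfactory receptor level as a covariate, the mean over probe sets of a symbol, and leaving out each array, or control 1 and deficient 2 together. The paper's methods name the t-test beside a Mann-Whitney test and do not say which test gave the array p-values. No batch was examined, since scan dates and scanner intensities were not used here. The number of arrays limits the precision.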

Additional observations from a re-analysis of the deposited data

How the results depend on the processing

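Ube2f stayed lower and past the threshold in 16 of 16 alternatives, with differences from -2.17 to -2.05 and adjusted p-values from 5.29e-05 to 0.0103, and the count of the 10 genes was 1 lower and 0 higher in each. Under the replicate block its limma adjusted p was 0.00265. Its difference stayed at -2.13, which a block with 1 array of each group per number cannot change. The numbers were not taken to pair the samples, since deviations of same-numbered arrays correlated at -0.06, -0.24 and 0.29, and the block left 367 lower and 70 higher probe sets of 503 and 129.

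Over all probe sets, the methods' t-test called 5 lower and 1 higher after adjustment (1028 and 468 at the study's unadjusted threshold), leaving out control 1 and deficient 2 together left 50 higher, and the olfactory receptor covariate gave 232 higher. Leaving out 1 array gave 269 to 431 lower and 46 to 81 higher. Lower calls made up 73.0% of calls after quantile normalization and 82.7% after median centring, against 79.6%.

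Of 431 values for 27 named genes, 406 kept sign and side of the threshold, 14 changed sign and 11 lost a call, 7 of them for Ramp1 and 4 under the methods' t-test for Lpxn, S100a10, Kcnk6 and Arhgap5. Dcun1d1 was 0.0428 after quantile normalization, 0.095 without control 1 and deficient 2 together and 0.0330 with the covariate, and Espnl was -0.0157 with array weights. With 1 array left out, the ranges were -0.17 to 0.14 for Dcun1d1, -0.10 to 0.17 for Dcun1d5, -0.05 to 0.19 for Uba3, -0.0233 to 0.46 for Rnf7, -0.21 to 0.0133 for Lrrfip1, -0.12 to 0.21 for Espnl and -0.0317 to 0.22 for Klhl30. The change of the Nae1 to Uba3 ratio ran from -0.001667 to 0.2583. The cause was not tested. Klhl30 was not tested without the dimmest probe sets, where it was left out.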

Other observations

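Control array 1 and deficient array 2 deviated from their groups together, with a correlation of 0.44 across probe sets (not independent of each other). Cops6, a subunit of the COP9 signalosome chosen after its values were seen, was at 8.93 and 8.86 on these arrays and at 10.63 and 10.54 on the other control and 10.49 and 10.24 on the other deficient arrays. Among NK cell markers, Klrb1c was at 6.98 and 7.71 on the same arrays and at 5.01 to 5.79 on the other 4. Of the 10 genes of NEDD8 conjugation, Rnf7 (12.33) and Nae1 (11.13) had their highest value over the 6 arrays on deficient array 2. Senp8 (7.30), Uba3 (12.03) and Dcun1d3 (4.68) had their lowest there. On control array 1 Rnf7 was at 11.69, beside 11.67 and 11.15 on the other controls. Senp8 was at 8.47 there, between the 8.69 and 7.89 of the other controls. Without control array 1 and deficient array 2, 1 of the 10 was again called lower and 0 higher.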
